A study of Mus musculus with 15 samples.

Results

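The levels of 10 immediate early genes, Fos, Fosb, Junb, Egr1, Egr2, Arc, Npas4, Nr4a1, Dusp1 and Ier2, were compared between diets in 5 tissues of male C57BL/6 mice. The genes were chosen by name, with earlier results of these data known, so the shares of all loci given beside them are a description. Each was found at 1 locus that carries no other gene name, so that 10 of the 23589 named loci are described. Hippocampus, hypothalamus, the mucosa of the colon, liver and epididymal fat were taken from mice fed ad libitum (AL), from mice restricted to 60% of the AL intake for 1 month from 4 months of age (DR), and from mice given 1 month of the same restriction and then fed ad libitum for 2 months (DR-AL). Each of the 15 libraries was 1 pool of RNA from 5 mice. Mice of the DR-AL group were 7 months old at sampling and those of the other groups 5 months old, so that diet and age cannot be told apart in DR-AL.

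Immediate early genes are transcribed within minutes of a stimulus, without new protein synthesis, when calcium, cyclic AMP or growth factor signals activate transcription factors such as CREB and SRF that are already bound in the cell. In neurons they are used as markers of recent activity, and in epithelium, liver and fat many of the same genes respond to growth factors, feeding, stress and handling of the tissue. Fos and Fosb encode Fos family proteins that pair with Jun family proteins, such as Junb, in the AP-1 transcription factor. The protein ΔFosB, made from a splice form of Fosb, is long lived and is known to build up with repeated stimulation. The Fos protein and its transcript turn over quickly. The counts here are of RNA per gene, do not separate splice forms and do not measure protein. Egr1 and Egr2 encode zinc finger transcription factors, Npas4 a transcription factor that is induced by calcium in neurons, and Nr4a1 an orphan nuclear receptor. Arc encodes a synaptic protein that controls glutamate receptor trafficking, Dusp1 a phosphatase that switches off MAP kinases, and Ier2 a nuclear protein of the rapid response.

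The promoters of 4 members are shown because Fos and Fosb followed different courses in the hippocampus, and because Egr2 and Nr4a1 were among the members that fell from DR to DR-AL in both brain regions. Junb also fell in both, and its window, with 1 match, is not shown. The sequences are the 250 bases before the RefSeq transcription start on GRCm38.p6, read 5′ to 3′ on the strand of the gene. Capitals mark matches to TGACG or to its reverse complement CGTCA, which is the core of the cyclic AMP response element bound by CREB, and, in Egr2 only, a match to the CArG box bound by SRF. The windows are chr12:85473640-85473889 on the + strand for Fos, chr7:19310046-19310295 on the - strand for Fosb, chr10:67537619-67537868 on the + strand for Egr2 and chr15:101266596-101266845 on the + strand for Nr4a1. For Egr2 there were 5 windows, and the window nearest to the start of a principal GENCODE transcript was taken. In the GENCODE M21 annotation no exon lies in the windows of Fos, Egr2 and Nr4a1, and the last 6 bases of the Fosb window are in an exon of Fosb. The Egr2 and Nr4a1 windows lie inside the GENCODE M21 gene bounds, which start at 67535475 and 101254269, so other start sites lie further upstream.
Fos: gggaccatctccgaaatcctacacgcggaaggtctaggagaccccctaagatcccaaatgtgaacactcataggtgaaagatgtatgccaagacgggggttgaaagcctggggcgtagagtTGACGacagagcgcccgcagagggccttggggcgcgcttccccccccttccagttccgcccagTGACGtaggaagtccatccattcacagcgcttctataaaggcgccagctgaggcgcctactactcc
Fosb: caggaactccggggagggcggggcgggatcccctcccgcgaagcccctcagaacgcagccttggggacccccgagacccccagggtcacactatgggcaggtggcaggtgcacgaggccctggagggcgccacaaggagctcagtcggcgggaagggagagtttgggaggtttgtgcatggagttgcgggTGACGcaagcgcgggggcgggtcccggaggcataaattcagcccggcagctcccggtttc
Egr2: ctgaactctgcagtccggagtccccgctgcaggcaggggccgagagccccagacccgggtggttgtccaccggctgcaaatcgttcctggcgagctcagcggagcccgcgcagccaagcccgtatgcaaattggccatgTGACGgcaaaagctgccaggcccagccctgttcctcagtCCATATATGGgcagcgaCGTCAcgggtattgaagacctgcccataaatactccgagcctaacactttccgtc
Nr4a1: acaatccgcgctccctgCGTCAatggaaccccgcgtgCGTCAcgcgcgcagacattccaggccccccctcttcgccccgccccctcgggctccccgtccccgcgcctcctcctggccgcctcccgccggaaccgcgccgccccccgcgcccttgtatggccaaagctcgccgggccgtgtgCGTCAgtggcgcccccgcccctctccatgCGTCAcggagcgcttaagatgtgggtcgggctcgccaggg
The promoter table held 7 of the 10 members, and Egr1, Arc and Ier2 were not searched. At least 1 match to TGACG on either strand was present in all 7 windows searched, against 17.8% of 32851 windows of the same length. In GENCODE M21 all 250 bases of the Npas4 window and 47 bases of the Dusp1 window lie in an exon of the gene, so these windows are not wholly upstream there. The full palindrome TGACGTCA, which holds 2 overlapping cores, was present only in Dusp1, at positions -143 to -136 from the start, and in 1.55% of all windows. An exact match to the CArG box (CC, then 6 bases of A or T, then GG) was present only in Egr2, at positions -72 to -63 from the start. Such a match was present in 1.47% of all windows. Sites with a mismatch and sites beyond the 250 bases were not searched, so the other members may hold such sites. A match is a description of the letters in the window and was not tested for binding.

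By level alone, 6 of the 10 members in the hippocampus were highest in the DR library and lowest in the DR-AL library. Fosb was high in both DR and DR-AL. Levels are counts per 1000000 counts on named loci (CPM). A gene was called changed when the Z test of the study gave an adjusted p under 0.05 and the level was at least 25% higher in one library than in the other. With 1 library per diet this test compares libraries on counting error and has no replicate check, and the exact 95% intervals given with log2 fold changes cover counting error only. Of the 10 members, 6 rose and 0 fell in DR against AL, beside 1.37% of 18804 loci called higher and 2.67% called lower. From AL to DR-AL, 1 member rose and 5 fell, beside 4.00% of loci called higher and 2.17% called lower. From DR to DR-AL, 0 members rose and 7 fell, beside 3.63% of loci called higher and 1.26% called lower. The median log2 fold change of the members was 0.39, -0.38 and -0.51 in the same order, with a median over all loci tested of -0.01, 0.00 and 0.01. Each library enters a pair of these comparisons, so they are not independent of each other. The 6 members highest in DR and lowest in DR-AL were all called lower from DR to DR-AL. Of them only Arc was called both in DR against AL and in DR-AL against AL. The share of all loci in that order was not counted. Where the mean count of a locus was at least 10, the called share was 1.46% higher in DR against AL and 1.17% lower in DR-AL against DR.

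**Figure D1:**
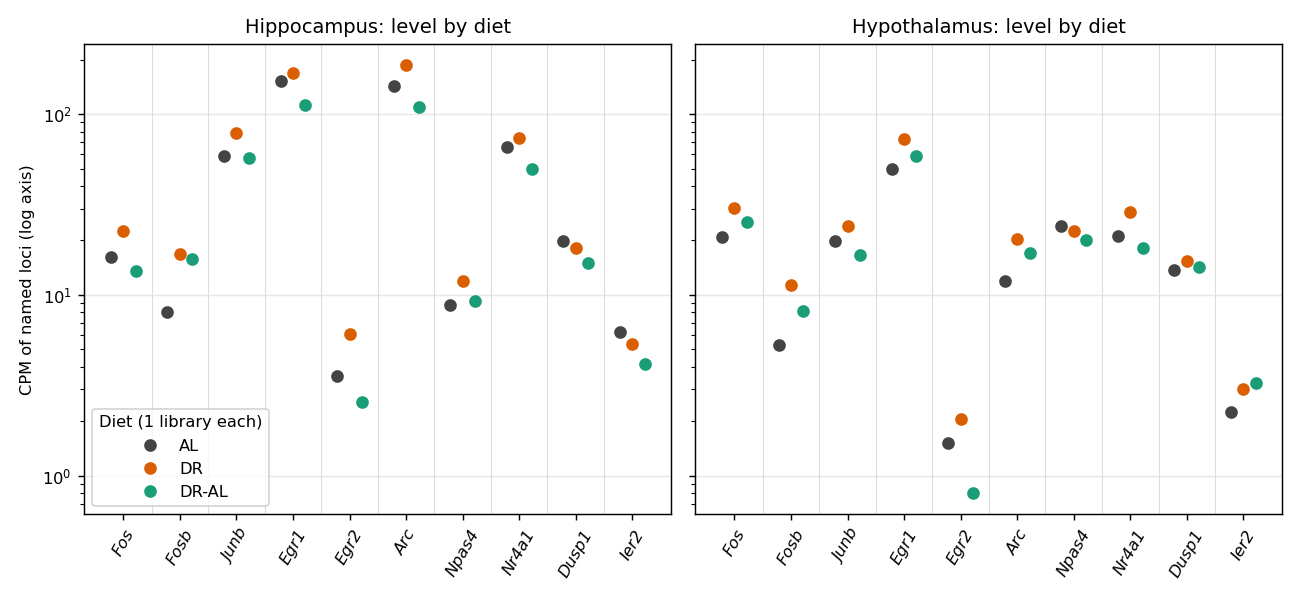
Level of each member in CPM on a log axis in the hippocampus (left) and the hypothalamus (right), with 1 point per diet and library. In the hippocampus the DR point is the highest for 8 of the 10 members, whether or not a change was called. Fosb stays high there in DR-AL (15.8 CPM), while in the hypothalamus Npas4 is highest in AL (24.1 CPM).

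Among the AP-1 genes, Fosb in the hippocampus was at 8.05 CPM in AL (326 counts), 16.9 CPM in DR (527 counts) and 15.8 CPM in DR-AL (398 counts). It was high in both DR and DR-AL, with a log2 fold change against AL of 1.07 (interval 0.87 to 1.27) for DR and 0.97 (0.76 to 1.19) for DR-AL, and DR-AL differed from DR by -0.09 (-0.28 to 0.10). Fos was at 16.3 CPM in AL, 22.6 CPM in DR and 13.5 CPM in DR-AL. Fos rose in DR by a log2 fold change of 0.47 (0.32 to 0.63) and fell from DR to DR-AL by 0.74 (interval of the log2 fold change -0.93 to -0.55). Its log2 fold change in DR-AL against AL, -0.27, did not reach the 25% required for a call. Junb was at 58.7 CPM in AL, 78.1 CPM in DR and 56.9 CPM in DR-AL, so that DR was high (log2 fold change 0.41) and DR-AL was close to AL (-0.05, -0.14 to 0.05). Jun, the most common partner of the Fos proteins and no member, was at 108, 135 and 123 CPM and was not called in any of the 3 comparisons.

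The ratio of Fosb to Fos within a library does not depend on how libraries are scaled. In the hippocampus it was 0.493 Fosb counts per Fos count in AL (0.431 to 0.564), 0.746 in DR (0.666 to 0.837) and 1.17 in DR-AL (1.01 to 1.36), and the counting intervals did not overlap. In the hypothalamus the ratio was 0.253 in AL (0.211 to 0.302), 0.375 in DR (0.332 to 0.423) and 0.322 in DR-AL (0.279 to 0.372). There DR was above AL, and the interval of DR-AL overlapped those of both AL and DR. The colon had much less Fosb per Fos, 0.0295 in AL (0.0254 to 0.0342), 0.0385 in DR (0.0346 to 0.0429) and 0.0538 in DR-AL (0.0493 to 0.0585), in the same order as the hippocampus. In fat the ratio was between 0.304 and 0.403 and the 3 intervals overlapped, and in the liver each library had at most 3 Fosb counts.

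**Figure D2:**
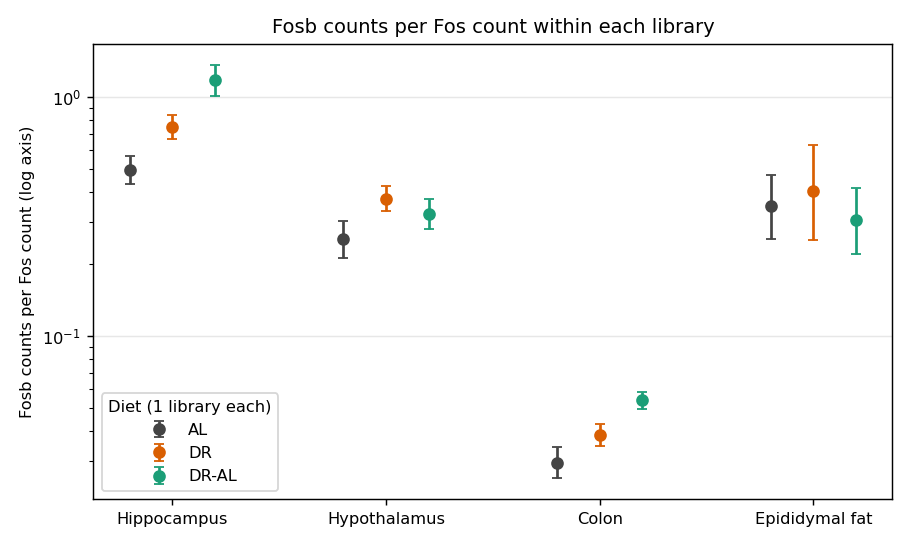
Fosb counts per Fos count in each library on a log axis, with exact 95% counting intervals as bars, for 4 tissues and 3 diets (the liver had too few counts to plot). The hippocampus steps up from 0.493 to 1.17 across AL, DR and DR-AL and the colon from 0.0295 to 0.0538, while in fat the bars overlap.

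Of the Egr genes in the hippocampus, Egr1 was at 153 CPM in AL, 168 CPM in DR and 112 CPM in DR-AL. The DR level was 1.10-fold that of AL and was not called, and Egr1 fell in DR-AL with a log2 fold change of -0.45 (-0.51 to -0.39) against AL and -0.58 (-0.65 to -0.52) against DR. Egr2, a low transcript, was at 3.56 CPM in AL, 6.05 CPM in DR and 2.54 CPM in DR-AL (144, 189 and 64 counts). It rose in DR with a log2 fold change of 0.77 (0.45 to 1.09) and fell from DR to DR-AL with -1.24 (-1.68 to -0.83), which was the largest change of a member in this tissue. Both Egr genes were lowest in DR-AL.

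Arc was at 143 CPM in AL, 186 CPM in DR and 110 CPM in DR-AL. It was the only member that rose in DR against AL (log2 fold change 0.38, 0.32 to 0.43) and also fell in DR-AL against AL (-0.38, -0.44 to -0.31). Npas4 was at 8.79 CPM in AL, 12 CPM in DR (375 counts) and 9.22 CPM in DR-AL, so that the DR level stood above the other two (log2 fold change 0.45, 0.24 to 0.66, against AL). Nr4a1 was at 65.4 CPM in AL, 74.0 CPM in DR and 50.0 CPM in DR-AL, with a fall in DR-AL against AL (-0.39, -0.49 to -0.29) and no call in DR against AL (0.18). These 3 neuronal activity genes all fell from DR to DR-AL.

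Dusp1 and Ier2 took another course in the hippocampus, with the AL library the highest. Dusp1 was at 19.8 CPM in AL, 18.1 CPM in DR and 15.1 CPM in DR-AL, and it fell in DR-AL against AL with a log2 fold change of -0.39 (-0.57 to -0.21). Ier2 was at 6.27 CPM in AL, 5.35 CPM in DR and 4.13 CPM in DR-AL, and it fell in DR-AL against AL with -0.60 (-0.94 to -0.27). Neither was called in DR against AL, where both values were below 0 and the interval of Dusp1 (-0.29 to 0.02) and that of Ier2 (-0.52 to 0.06) included 0. Between genes, levels per transcript length (FPKM) in the AL hippocampus were highest for Egr1 (39.9), Arc (33.6), Junb (27.3) and Nr4a1 (20.8) and lowest for Fosb (1.81), Npas4 (1.74) and Egr2 (0.897). The spread of these levels over mice is not known from pooled RNA.

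Markers of cell types were read beside these results. Markers of pyramidal neurons summed to 2956, 2924 and 2730 CPM in the AL, DR and DR-AL hippocampus and those of dentate granule neurons to 394, 401 and 380 CPM, with none at 0 counts. Choroid plexus markers were called lower in DR against AL for 4 of 4 genes and higher in DR-AL against DR for 4 of 4, with sums of 2853, 1749 and 2781 CPM. The 3 red blood cell loci fell in both DR and DR-AL against AL, with sums of 45.3, 23.2 and 21.9 CPM. Oligodendrocyte markers summed to 4952, 4079 and 4377 CPM and were called lower against AL for 2 of 4 genes in DR and 3 of 4 in DR-AL. Endothelial markers (3 of 6) and smooth muscle markers (3 of 4) were called higher in DR-AL against AL. Their part in the member results was not tested, and in pooled tissue fewer cells of a type and less RNA per cell cannot be told apart. If a biological coefficient of variation of 0.1 between libraries is allowed for, in a negative binomial test, the calls were 1 of 10 in each hippocampus comparison, namely Fosb in DR and DR-AL against AL and Egr2 in DR-AL against DR, beside 0.0425%, 0.292% and 0.303% of all loci in the order DR against AL, DR-AL against AL and DR-AL against DR.

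In the hypothalamus, 5 of 10 members rose and 0 fell in DR against AL, beside 4.33% of 19320 loci called higher and 2.73% called lower. Against AL, 2 rose and 1 fell in DR-AL, beside 6.06% called higher and 9.03% called lower, and in DR-AL against DR, 0 rose and 4 fell, beside 2.82% and 6.80%. The member median log2 fold change was 0.43, 0.14 and -0.28. Fosb, Arc and Fos were high in DR and lay between DR and AL in DR-AL, where Fos was not called against either.

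Fosb in the hypothalamus was at 5.29 CPM in AL (157 counts), 11.3 CPM in DR (371 counts) and 8.17 CPM in DR-AL (255 counts). It rose against AL with a log2 fold change of 1.10 (0.83 to 1.38) for DR and 0.63 (0.33 to 0.92) for DR-AL, and fell from DR to DR-AL with -0.47 (-0.71 to -0.24). Arc was at 12 CPM in AL (356 counts), 20.3 CPM in DR and 17.0 CPM in DR-AL. It rose against AL in both DR (0.76, 0.57 to 0.95) and DR-AL (0.50, 0.31 to 0.70), whereas in the hippocampus it had fallen in DR-AL. The difference between the tissues in the log2 fold change of Arc in DR-AL against AL was -0.88 (-1.08 to -0.68, hippocampus minus hypothalamus, counting error only).

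Egr1 was at 49.5 CPM in AL, 73.0 CPM in DR and 58.8 CPM in DR-AL in the hypothalamus and rose in DR with a log2 fold change of 0.56 (0.47 to 0.66). Fos was at 20.9, 30.2 and 25.3 CPM in AL, DR and DR-AL and rose in DR with 0.53 (0.39 to 0.68). Nr4a1 was at 21.3 CPM in AL, 28.7 CPM in DR and 18.1 CPM in DR-AL, rose in DR with 0.43 (0.28 to 0.58) and fell from DR to DR-AL with -0.67 (-0.82 to -0.52). In all 3 genes the DR library was the highest.

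Junb was at 19.8, 23.9 and 16.6 CPM in the AL, DR and DR-AL hypothalamus, and only the fall from DR to DR-AL was called (-0.53, -0.69 to -0.37). Egr2 had 45, 67 and 25 counts and fell in DR-AL against AL (-0.91, -1.69 to -0.18) and against DR (-1.34, -2.08 to -0.67). Npas4 was at 24.1, 22.6 and 20.2 CPM, Dusp1 at 13.8, 15.3 and 14.2 CPM and Ier2 at 2.26, 3.02 and 3.24 CPM, and none of the 3 genes was called in any comparison. Npas4 in DR against AL differed between hippocampus and hypothalamus by 0.55 (0.29 to 0.80) on the log2 scale.

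**Figure D3:**
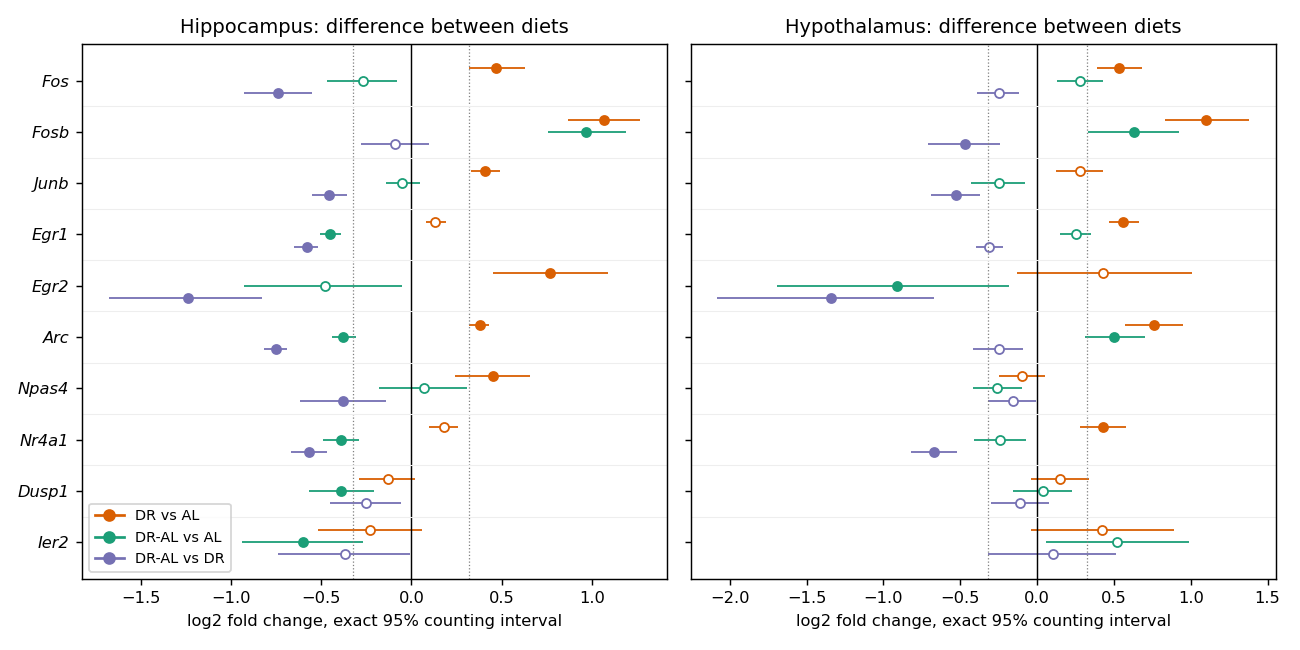
Log2 fold change of each member in 3 comparisons in the hippocampus (left) and the hypothalamus (right), with exact 95% counting intervals as lines, filled points where the Z test called a change and dotted lines where one level is 25% above the other. Fosb lies at 1.07 and 1.10 in DR against AL, and in DR-AL against DR Egr2 lies farthest to the left in both regions (-1.24 and -1.34).

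In the hypothalamus, markers of colon epithelium summed to 23.9 CPM in AL against 12.5 CPM in DR and 12.4 CPM in DR-AL, and to 20578 CPM in the AL colon. The AL hypothalamus value is 0.116% of the colon value, a share at which the AL colon would give 0.277 CPM of Fos and 0.00818 CPM of Fosb, beside the 20.9 and 5.29 CPM measured. This share rests on 1 pair of libraries and 7 markers, and carry-over of colon RNA was not tested. Smooth muscle markers summed to 21.4, 54.1 and 27.8 CPM in AL, DR and DR-AL, with 3 of 4 called higher in DR against AL and 3 of 4 lower from DR to DR-AL. Oligodendrocyte markers summed to 3201, 3560 and 4720 CPM, with 3 of 4 called higher in DR-AL against AL. The dentate granule list summed to 399, 339 and 265 CPM, with 5 of 5 called lower in DR-AL against AL. This list summed to 394 CPM in the AL hippocampus and 2522 CPM in the AL liver, so it does not single out dentate granule neurons here. Pyramidal neuron markers summed to 362, 323 and 220 CPM, with 3 of 6 called higher and 2 lower in DR-AL against AL. Of the 7 hypothalamic neuron markers, 2 were called higher and 4 lower in DR-AL against AL, and 2 higher and 2 lower in DR against AL. Red blood cell markers summed to 82.2, 42.2 and 26.9 CPM, and core clock genes, which swing with time of day, to 1276, 1447 and 1145 CPM in the AL, DR and DR-AL hypothalamus and to 1273, 1366 and 1217 CPM in the hippocampus. Clock sums were thus highest in DR and lowest in DR-AL in both regions. By level alone, 6 of 10 members in the hippocampus and 3 of 10 in the hypothalamus had the same order. The share of all loci in that order was not counted, and the part of these lists in the results was not tested. In the negative binomial test 1 member was called in DR against AL (Fosb), 0 in DR-AL against AL and 1 in DR-AL against DR (Egr2), beside 1.21%, 3.45% and 1.89% of loci.

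A diet effect shared by the hippocampus and hypothalamus was tested with edgeR over the 6 brain libraries, with tissue as a term. This fit had 2 residual degrees of freedom. No member passed at an adjusted p under 0.05 in any of the 3 comparisons, beside 0.00623%, 0% and 0.00623% of 16043 loci. At an unadjusted p under 0.05 there were 6 members in DR against AL (Arc, Egr2, Fos, Fosb, Junb and Nr4a1), 3 in DR-AL against AL (Egr2, Fosb and Nr4a1) and 6 in DR-AL against DR (Arc, Egr1, Egr2, Fos, Junb and Nr4a1), beside 4.55%, 8.67% and 5.05% of all loci. DESeq2 called 1 member in each, Fosb with a log2 fold change of 1.08 (adjusted p = 0.000434) in DR and 0.82 (adjusted p = 0.0296) in DR-AL against AL, and Nr4a1 with -0.60 (adjusted p = 0.00224) in DR-AL against DR. Of 19735 loci, DESeq2 called 9 in DR against AL, 50 in DR-AL against AL and 29 in DR-AL against DR. For Fosb the edgeR estimates were 1.09 (adjusted p = 0.697) and 0.82 (adjusted p = 0.274). The same pools of mice gave both regions, which are therefore not independent samples of a diet. Over all 15 libraries no member passed in edgeR or in DESeq2 in any comparison, beside 0.00610%, 0% and 0.00610% of 16381 loci in edgeR and 22, 22 and 17 of 21196 loci in DESeq2. There 0 members had an unadjusted p under 0.05 in edgeR, beside 3.59%, 4.58% and 3.76% of loci. Without fat there were 2 in DR against AL (Arc and Fosb) and 1 in DR-AL against AL (Fosb), and without the hippocampus 1 in DR-AL against AL (Arc), none with an adjusted p under 0.05. Loci with an unadjusted p under 0.05 were 631 and 589 of 15967 without fat and 748 of 16182 without the hippocampus. In DESeq2 over all 15 libraries Arc had an unadjusted p under 0.05 in DR-AL against AL, beside 1309 of 21196 loci.

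In the colon, Fos and Junb were at levels above those in either brain region, and Fos, Fosb and Dusp1 were highest in DR-AL. Against AL, 6 of 10 members rose in DR-AL and 0 fell, beside 5.84% of 18242 loci called higher and 8.51% called lower. In DR-AL against DR, 4 rose and 0 fell (6.78% and 7.68%), and in DR against AL, 1 rose and 1 fell (9.05% and 10.6%). Fos was at 238 CPM in AL (6333 counts), 275 CPM in DR and 423 CPM in DR-AL, with a log2 fold change of 0.83 (0.78 to 0.87) in DR-AL against AL. Fosb was at 7.04, 10.6 and 22.7 CPM and rose at each comparison, with 0.59 (0.33 to 0.85) in DR against AL, 1.69 (1.45 to 1.94) in DR-AL against AL and 1.10 (0.91 to 1.30) in DR-AL against DR. Dusp1 was at 33.1, 22.9 and 51.9 CPM, with a fall in DR (-0.53, -0.67 to -0.39) and a rise in DR-AL against AL (0.65, 0.52 to 0.77).

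Among the other members in the colon, Junb was at 195, 217 and 201 CPM and Ier2 at 67.3, 65.9 and 65.6 CPM in AL, DR and DR-AL, and neither was called in any comparison. Egr1 was at 22.5, 23.0 and 29.9 CPM and rose in DR-AL against AL (0.41, 0.25 to 0.57). Nr4a1 (70, 110 and 103 counts) and Arc (16, 33 and 36 counts) rose in DR-AL against AL only, Egr2 had 3 to 4 counts per library and Npas4 at most 1. Colon epithelium markers summed to 20578, 20776 and 20174 CPM, while lymphocyte markers summed to 7.68, 2.30 and 16.0 CPM and smooth muscle markers to 34.3, 49.2 and 18.5 CPM. Adipocyte markers summed to 43.7, 21.6 and 34.3 CPM and clock genes to 1313, 1425 and 1180 CPM, and the part of these lists was not tested. In the negative binomial test Fos and Fosb were called in DR-AL against AL, Fosb and Dusp1 in DR-AL against DR, and no member in DR against AL, beside 1.86%, 3.66% and 4.26% of loci.

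In the liver 5 members had at least 25 counts in every library, and Egr1 moved most. Egr1 was at 8.89 CPM in AL (220 counts), 3.72 CPM in DR (81 counts) and 14.2 CPM in DR-AL (348 counts). Its DR level was 0.42-fold that of AL (called lower, interval of the log2 fold change -1.64 to -0.88), and it rose in DR-AL against AL with 0.67 (0.43 to 0.93), and rose from DR to DR-AL with 1.93 (1.58 to 2.30). Nr4a1 had 55, 25 and 45 counts and fell in DR (-0.94, -1.70 to -0.25). Dusp1 was at 15.6, 22.5 and 23.9 CPM and rose against AL in DR (0.53, 0.33 to 0.73) and in DR-AL (0.62, 0.43 to 0.81). Junb was at 26.1, 22.1 and 35.9 CPM and rose in DR-AL against AL (0.46, 0.31 to 0.61), and Ier2 was at 18.7, 22.9 and 17.9 CPM with a fall from DR to DR-AL (-0.36, -0.54 to -0.17).

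Fos had 18, 7 and 17 counts in the AL, DR and DR-AL liver and was not called. Npas4 had 0 counts in all 3 liver libraries, so 9 members were tested there. Of these, 2 rose and 2 fell in DR against AL, beside 18.1% and 9.93% of 17408 loci. From AL to DR-AL 4 rose and 0 fell (15.1% and 15.8%), and in DR-AL against DR 2 rose and 1 fell (16.9% and 24.0%). The rises include Arc in DR against AL, with 0 counts in AL and 4 in DR, and Egr2 in DR-AL against AL, with 0 counts in AL and 4 in DR-AL, for which no fold is given. In the negative binomial test Egr1 was called in all 3 comparisons, joined by Junb in DR-AL against DR, beside 8.85%, 10.6% and 22.8% of loci. Core clock genes in the liver summed to 629, 995 and 395 CPM in AL, DR and DR-AL and were called for 11 of 14 in DR against AL, 12 of 14 in DR-AL against AL and 14 of 14 in DR-AL against DR. Adipocyte markers summed to 15.3 CPM in AL and in DR and 85.9 CPM in DR-AL. Hepatocyte markers were called higher for 1 and lower for 1 of 4 tested in DR against AL, and higher for 3 of 4 from DR to DR-AL. The part of these lists in the liver results was not tested.

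The fat libraries differed widely, and the share of all loci called is given beside the members. In DR against AL, 4 members rose and 4 fell, beside 35.3% of 20382 loci called higher and 10.4% called lower. From AL to DR-AL 5 rose and 0 fell (46.1% and 11.9%), and in DR-AL against DR 7 rose and 1 fell (38.4% and 13.3%). In the negative binomial test 5, 5 and 6 members were called, beside 28.6%, 43.7% and 35.3% of loci. Markers of testis germ cells summed to 1.98 CPM in AL, 367 CPM in DR and 1881 CPM in DR-AL, those of epididymis to 848, 2881 and 4615 CPM, those of hepatocytes to 2789, 24.6 and 5.19 CPM, those of smooth muscle to 1014, 3061 and 919 CPM, core clock genes to 1299, 1694 and 891 CPM and those of adipocytes to 27841, 20532 and 17580 CPM. Their part in the member results was not tested. The AL fat level of hepatocyte markers is 12.4% of that in the AL liver, a share at which the liver would give 2.32 CPM of Ier2 and 3.24 CPM of Junb, beside 16.0 and 16.9 CPM measured. The series holds no testis or epididymis library, so no such share was worked out for those markers. Carry-over into fat was not tested.

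Arc moved most in fat, from 1.49 CPM in AL (39 counts) to 11.4 CPM in DR (260 counts) and 48.8 CPM in DR-AL (1335 counts), and its FPKM were in the same order (0.303, 1.28 and 3.08). By FPKM with a pseudocount of 0.1 its log2 fold change in DR-AL against AL was 2.98, against 5.04 by CPM. Egr2 was at 2.14, 6.70 and 9.69 CPM and rose against AL in DR (1.64, 1.20 to 2.12) and in DR-AL (2.17, 1.76 to 2.62), also on the FPKM scale, while its rise from DR to DR-AL (0.53) had the opposite sign on the FPKM scale. Npas4 had 19, 65 and 42 counts and rose in DR against AL (1.94, 1.22 to 2.79) on both scales, and its rise in DR-AL against AL had the opposite sign on the FPKM scale. Dusp1 was at 68.1, 40.0 and 67.2 CPM and fell in DR (-0.77, -0.89 to -0.65), and Fos (6.45, 3.15 and 6.62 CPM) fell in DR with -1.03 (-1.45 to -0.63). The falls of Fosb, Fos, Dusp1 and Ier2 in DR had the same sign on the FPKM scale. The rises of Nr4a1 in DR against AL, of Junb and Nr4a1 in DR-AL against AL and of Junb, Nr4a1, Dusp1 and Ier2 from DR to DR-AL had the opposite sign there, so that no direction is drawn for them. Over loci whose mean count was at least 10, the median log2 fold change was 0.34 by counts and -1.18 by FPKM with a pseudocount of 0.1 in DR-AL against AL.

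**Figure D4:**
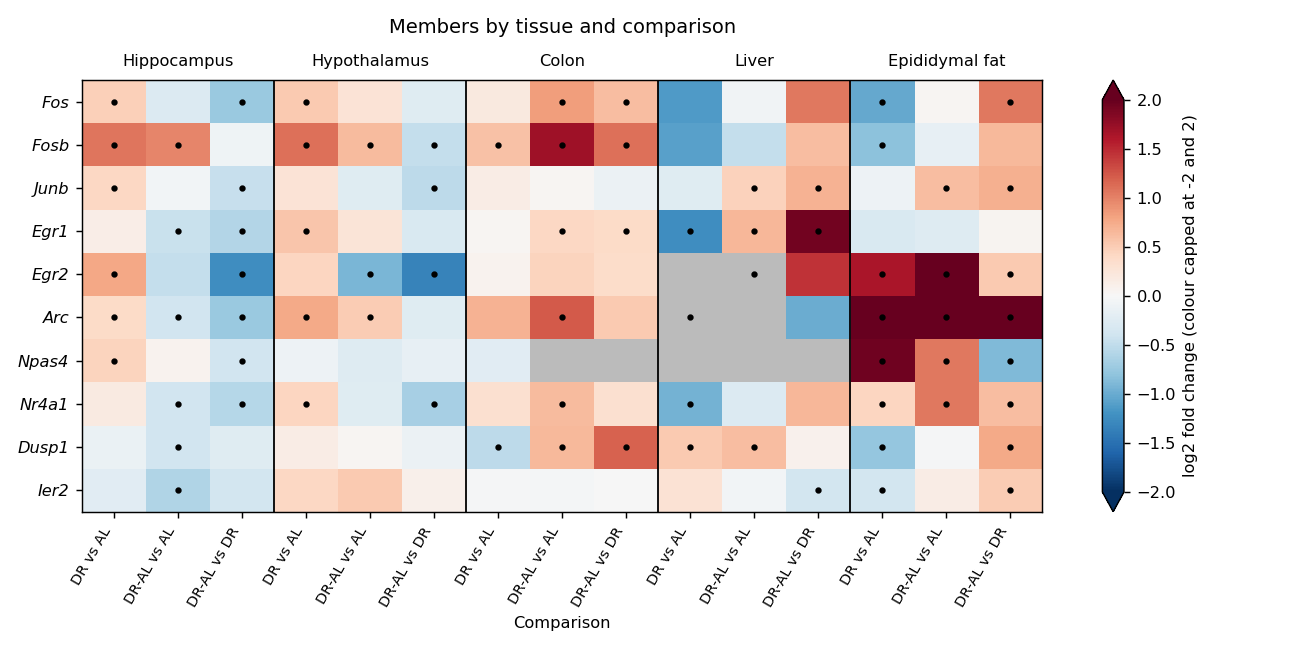
Log2 fold change of the 10 members (rows) in 3 comparisons in each of 5 tissues (columns), with colour from blue (lower) to red (higher) capped at -2 and 2, a dot where the Z test called a change, and grey where either library has 0 counts. The DR-AL against DR columns are mostly blue in the brain (Egr2 -1.24 in the hippocampus) and mostly red in colon, liver and fat (Egr1 1.93 in the liver). In that liver column 2 of the 9 members tested were called higher and 1 lower, beside 16.9% and 24.0% of loci. Fos had 17 and 7 counts there, and Fosb and Egr2 had fewer. In fat Junb, Egr1, Egr2, Nr4a1, Dusp1 and Ier2 have the opposite sign by FPKM.

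Genes around the members were read from 7 lists in the brain, which were also chosen with earlier results of these data known. Of 14 AP-1, Egr and Nr4a family genes outside the members, 4 rose and 0 fell in DR against AL in the hippocampus, with a list median log2 fold change of 0.32, beside 1.37% of all loci called higher and 2.67% lower. Among them Atf3, a stress-induced partner of AP-1, went from 29 counts in AL to 52 in DR (1.20, 0.54 to 1.93), Fosl2, a Fos family gene, from 48.5 to 78.1 CPM (0.69, 0.60 to 0.77) and Egr4 from 18.3 to 28.3 CPM (0.63, 0.49 to 0.77). In DR-AL against AL, 5 of the 14 rose and 0 fell, among them Fosl2 (66.5 CPM, 0.45), Atf3 (45 counts, 1.30) and Egr4 (24.1 CPM, 0.40), beside 4.00% and 2.17% of loci, and from DR to DR-AL 0 of 14 were called, beside 3.63% and 1.26%. In the hypothalamus 4 of the 14 rose and 0 fell in DR (4.33% and 2.73% of loci), 3 rose and 0 fell in DR-AL against AL (6.06% and 9.03%), and 1 rose and 6 fell from DR to DR-AL (2.82% and 6.80%).

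Of 32 other rapid response genes, 6 rose and 1 fell in DR against AL in the hippocampus. Gadd45b, a stress and demethylation gene, was at 9.65, 15 and 11.7 CPM in AL, DR and DR-AL, with 0.63 (0.43 to 0.83) in DR against AL, and Klf10, a zinc finger transcription factor, was at 28.2, 38.6 and 31.6 CPM (0.45, 0.33 to 0.57). Ier5l, an immediate early response gene, was at 9.06, 12.4 and 10.3 CPM (0.45, 0.24 to 0.66). None of the 23 activity-regulated effector genes, 28 upstream kinases and transcription factors, 8 synaptic receptor and channel genes and 14 core clock genes was called in that comparison, in which 1.37% of all loci were called higher and 2.67% lower. Of the 10 glucocorticoid response genes, Errfi1 rose (48.1 to 64.9 CPM, 0.43) and Mt1, a metallothionein, fell (153 to 115 CPM, -0.41). From DR to DR-AL in the hippocampus, 1 rapid response gene rose and 4 fell, and 4 glucocorticoid response genes rose and 0 fell, beside 3.63% of loci called higher and 1.26% lower. Against AL, 3 rapid response genes rose and 2 fell in DR-AL, and 4 glucocorticoid response genes and 3 effector genes rose and 0 fell, beside 4.00% and 2.17% of loci. Of the core clock genes, 3 of 14 fell from DR to DR-AL. In the hypothalamus 9 of 32 rapid response genes rose and 0 fell in DR against AL, and 0 rose and 5 fell from DR to DR-AL. Over all hypothalamus loci, 4.33% were called higher and 2.73% lower in DR against AL. These shares were 6.06% and 9.03% in DR-AL against AL, and 2.82% and 6.80% from DR to DR-AL. The glucocorticoid response genes there had 5 higher and 1 lower in DR and 5 higher and 0 lower in DR-AL, both against AL. The effector genes there had 3 higher and 2 lower in DR against AL and 2 higher and 3 lower from DR to DR-AL, and clock genes had 3 higher in DR against AL and 7 lower from DR to DR-AL. The upstream list had 1 of 28 called in DR against AL and 5 of 28 in DR-AL against AL, beside 7.06% and 15.1% of loci called in either direction. Of the 8 synaptic genes there, 0 were called. Actb, read as a reference, was at 1232, 1117 and 1159 CPM in the hippocampus and was not called.

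Genes that followed the members most closely were taken as those with the highest Pearson correlation, over the 15 libraries, between their level and the mean of the members, both centred within each tissue. Among 10682 loci these were Gar1 (r = 0.90), Tnfrsf10b (0.90), Dcun1d3 (0.89), Smg8 (0.89) and Aftph (0.88). The mean centred log2 level of the members was -0.05, 0.29 and -0.24 in AL, DR and DR-AL in the hippocampus and -0.17, 0.26 and -0.10 in the hypothalamus, against -0.38, -0.10 and 0.49 in fat, so that fat weighs most in this likeness. Dcun1d3, for example, was at 19.8, 24.3 and 21.9 CPM in the hippocampus and at 48.2, 51.7 and 59.4 CPM in fat. In fat several members changed direction by FPKM, and the correlation was not worked out on that scale. The libraries share pools of mice between tissues, and the correlation is a description.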

How the data were processed

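RNA from each tissue was pooled from 5 mice per diet, depleted of ribosomal RNA and sequenced as stranded libraries, per the labels and the study's methods. The deposited table holds 30 columns, with counts and FPKM of 33603 loci in 15 libraries. Trimming, alignment by strand in Strand software, removal of duplicates and use of the DESeq algorithm by the authors are given in the study's methods, and the submitters' processing notes name DESeq2. The deposited counts are whole numbers without normalization, and the deposited FPKM are values per transcript length by the authors, whose scaling between libraries is not given in the sources used here. The labels name mm9 and the methods another build, and the positions in the table do not match GENCODE M21. Coordinates printed here are therefore those of RefSeq on GRCm38.p6 and of GENCODE M21.

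From the counts, CPM were taken over 23589 named loci, whose totals were 21767088 to 40500130 per library (median 26554699). Loci without a name held 0.258% to 1.39% of the counts and were left out of totals and tests. The members and all lists were chosen with earlier results of these data known. The Z test took square roots of scaled counts with Poisson variance, two-sided, with Benjamini-Hochberg adjustment over loci detected (1 count or more) in the tissue, and one level had to be at least 25% above the other. Log2 fold changes use counts scaled to a common total plus 0.5, and intervals are exact Clopper-Pearson intervals at 95%. Named genes of the lists are at most the 3 with the largest change between the DR and AL hippocampus among those called there with at least 100 counts over the 3 libraries, and genes alike to the members have at least 10 counts in every library. Effects shared by tissues were fitted with edgeR 4.0.16 (quasi-likelihood, TMM, filterByExpr, tissue as a term) in R 4.3.3 on libraries that came from the same pools. The alternatives tried were a fold of 2, a negative binomial test (coefficient of variation 0.1), a mean of at least 10 counts, totals that leave out the 10 most abundant loci, DESeq size factors, FPKM with pseudocounts of 0.1 and 1, DESeq2 1.42.0, RLE size factors, no filter and each tissue left out. Tested on simulated data for DR against AL, the Z test found 200 of 200 genes with a simulated 2-fold change in each tissue, with 12 to 39 false calls among 16605 to 19934 loci, of which at most 17 had a mean of at least 10 counts. Those counts were drawn from a Poisson distribution, as the Z test assumes, so its false calls leave out variation between pools. The quasi-likelihood test over 5 tissues found 191 of 200 with 4 false calls among 16527 loci. Its simulated counts were negative binomial, with the same rise in DR in every tissue. The members changed differently between tissues, so the share found is not the power of this fit for them. In the real data the fit over 5 tissues called 1 of 16381 loci in DR against AL. The simulation did not cover the brain fit with 2 residual degrees of freedom, so the power of that fit is not known. The real-time PCR and bisulfite measurements were not analysed here. Python 3 with scipy and pandas was used.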

Additional observations from a re-analysis of the deposited data

Results flagged for a closer look

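Members called in opposite directions in a pair of tissues under the same diet comparison stood out, and each is given here with the pair that was farthest apart. The value is the difference between the tissues in the log2 ratio of CPM, without a pseudocount, with its 95% counting interval. With 1 library per tissue and diet the difference was not tested beyond counting error. From AL to DR-AL, Arc was higher in fat than in hippocampus by 5.41 (4.95 to 5.88), Dusp1 was higher in colon than in hippocampus by 1.04 (lower bound 0.82), Egr1 was higher in liver than in hippocampus by 1.13 (0.87 to 1.38), Egr2 was higher in fat than in hypothalamus by 3.10 (2.28 to 3.92), and Nr4a1 was higher in fat than in hippocampus by 1.44 (1.19 to 1.69). In DR-AL against DR, Arc was higher in fat than in hippocampus by 2.85 (2.65 to 3.06), Egr1 was higher in liver than in hippocampus by 2.51 (2.16 to 2.87), Egr2 was higher in fat than in hypothalamus by 1.88 (1.16 to 2.61), Fos was higher in fat than in hippocampus by 1.81 (1.38 to 2.25), Fosb was higher in colon than in hypothalamus by 1.57 (1.27 to 1.87), Ier2 was higher in fat than in liver by 0.87 (0.59 to 1.15), Junb was higher in fat than in hypothalamus by 1.24 (1.00 to 1.48), and Nr4a1 was higher in fat than in hypothalamus by 1.28 (1.02 to 1.55). In DR against AL, Dusp1 was higher in liver than in fat by 1.30 (1.07 to 1.52), Egr1 was higher in hypothalamus than in liver by 1.82 (1.44 to 2.20), Fos was higher in hypothalamus than in fat by 1.56 (1.14 to 1.99), Fosb was higher in hypothalamus than in fat by 1.92 (1.23 to 2.62), and Nr4a1 was higher in fat than in liver by 1.39 (0.66 to 2.12). 

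Arc in DR-AL against AL had the widest of these differences, between fat and hippocampus. Both tissues had many counts in the DR-AL library (1335 and 2774 counts), and the AL fat library had 39. By FPKM with a pseudocount of 0.1 the difference was 3.33. Testis germ cell and epididymis markers moved with Arc in fat, and their part was not tested. On the FPKM scale the direction in fat was the opposite for Nr4a1 in DR against AL, for Nr4a1 in DR-AL against AL, and for Egr2, Ier2, Junb and Nr4a1 in DR-AL against DR, so these differences rest on the scale chosen in fat. Where fat kept its sign, the FPKM difference was smaller for Arc in DR-AL against DR (2.05), Egr2 in DR-AL against AL (1.06) and Fos in DR-AL against DR (0.93), and larger in DR against AL for Dusp1 (1.89), Fos (2.18) and Fosb (2.20). Fosb in DR-AL against DR rose in the colon and fell in the hypothalamus, and Egr1 fell in DR in the liver while it rose in the hypothalamus, and neither involves fat.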

How the results depend on the processing

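No paired analysis of replicates was possible because each tissue and diet had 1 library of pooled RNA. The edgeR and DESeq2 fits had tissue as a term in place of a replicate block. In the hippocampus, hypothalamus, colon and liver no member changed direction in a called result under any alternative run. With the negative binomial test the members called were 1, 1 and 1 in the hippocampus, 1, 0 and 1 in the hypothalamus, 0, 2 and 2 in the colon, 1, 1 and 2 in the liver and 5, 5 and 6 in fat, in the order DR against AL, DR-AL against AL and DR-AL against DR, beside shares of all loci of 0.0425%, 0.292% and 0.303%, then 1.21%, 3.45% and 1.89%, then 4.26%, 1.86% and 3.66%, then 8.85%, 10.6% and 22.8%, and in fat 28.6%, 43.7% and 35.3%. With a fold of 2 they were 1, 0 and 1, then 1, 0 and 1, then 0, 2 and 2, then 2, 1 and 1, and in fat 4, 4 and 2, beside at most 1.62% of loci in the hippocampus, 4.61% in the hypothalamus, 6.17% in the colon and 14.9% in the liver, and 23.9%, 33.5% and 25.5% in fat. By FPKM with a pseudocount of 0.1 and the fold alone, 5 were called in the hypothalamus in DR-AL against AL (24.1% of loci), 5 in the colon in DR against AL (35.1%), 8 and 6 in the liver in DR against AL and DR-AL against DR (49.1% and 60.5%), and 9 and 3 in fat in DR-AL against AL and DR-AL against DR (84.9% and 73.5%). With a pseudocount of 1 the counts were 2 in the hypothalamus in DR-AL against DR (4.97%), and 8 and 2 in fat (69.4% and 54.4%). DESeq2 called 1 member in each brain comparison where edgeR called 0, beside 9, 50 and 29 of 19735 loci in DESeq2. The cause of these differences was not tested beyond the stricter thresholds themselves. In fat, signs turned by FPKM, with log2 values at pseudocounts of 0.1 and 1 for each gene. In DR against AL these were Nr4a1 -0.38 and -0.27. Against AL, in DR-AL, these were Fos -1.48 and -0.89, Junb -1.05 and -0.88, Npas4 -0.23 and -0.04, Nr4a1 -0.57 and -0.39 as well as Ier2 -1.48 and -1.25. In DR-AL against DR these were Junb -0.05 and -0.04, Egr1 -0.74 and -0.47, Egr2 -0.30 and -0.15, Nr4a1 -0.19 and -0.12, Dusp1 -0.08 and -0.07 as well as Ier2 -0.25 and -0.20. Among loci with a mean of at least 10 counts, the share of called loci that were higher moved by more than 10 percentage points under other scales. By FPKM with a pseudocount of 0.1 it went from 37.1%, 67.3% and 77.7% to 70.4%, 82.2% and 66.8% in the hippocampus (DR against AL, DR-AL against AL, DR-AL against DR). The median of these loci there stood at 0.11, 0.13 and 0.01 log2 units. The share went from 41.1% and 28.3% to 52.3% and 47.8% in the hypothalamus (the latter pair) and from 40.9% and 47.5% to 55.1% and 62.2% in the colon (the same pair). It went from 63.8% to 48.5% in the liver in DR against AL and from 77.6%, 78.3% and 73.3% to 24.4%, 19.6% and 20.5% in fat. With DESeq size factors it went to 48.4% and 52.5% in the liver (from 63.8% in DR against AL and 42.0% in DR-AL against DR) and to 60.8%, 54.6% and 61.1% in fat.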
